A study of Mus musculus with 8 samples.

Results

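Dorsal skin of 3-month-old TPH1 knockout mice and of WT mice was compared by bulk RNA-seq in 4 libraries per genotype. The product of Tph1 is a tryptophan hydroxylase, the enzyme that starts serotonin synthesis outside the brain. The labels name no allele, deleted exon, driver, strain, backcross, sex or litter, and call the mutant mice derivatives of the wild type. The 10 genes described here are Kcnc1, Sergef, Saal1, Saa3, Hps5, Gtf2h1, Ldha, Tsg101, Uevld and Spty2d1. They were chosen for their position beside Tph1, with earlier results of these data known, out of 55488 genes in the deposited tables. All 10 lie with their whole bodies within 0.4 Mb of Tph1, which the GENCODE M21 annotation of GRCm38 places on the minus strand at chr7:46644641-46672537. That interval holds 37 annotated genes, of which 19 are protein-coding. Of these 19, 8 are neither Tph1 nor among the 10. Kcnc1 and Sergef lie on the side of lower coordinates and the other 8 on the side of higher coordinates. Genes this close to a targeted allele are inherited with it, so that in a comparison of these 2 genotypes the loss of Tph1 and the chromosome segment that carries the allele cannot be told apart.

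The neighbours share a position and not a pathway. Gtf2h1 is the p62 core subunit of TFIIH, the complex that opens DNA for transcription by RNA polymerase II and for nucleotide excision repair. Hps5 belongs to BLOC-2, which helps to build lysosome-related organelles such as melanosomes and platelet dense granules. Tsg101 is the ubiquitin-binding subunit of ESCRT-I, which sorts membrane proteins into endosomal vesicles, and Uevld joins a ubiquitin-binding domain of the same kind to a domain like that of lactate dehydrogenase. Ldha is the subunit of lactate dehydrogenase that prevails in glycolytic tissue. Sergef has repeats like those of the exchange factor RCC1 and binds the exocyst, Spty2d1 is a histone chaperone, and Kcnc1 is the Kv3.1 potassium channel of fast-firing neurons. Saa3 is an acute-phase serum amyloid A made outside the liver in mice, and Saal1 is named for a likeness to that family.

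The total expected count per library was 20531601 to 24678638. Tph1 had no count in any of the 4 TPH1 knockout libraries, and 18, 0, 27 and 11 counts in WT replicates 1 to 4. The groups overlapped at 0 because of WT replicate 2, and the difference did not pass an exact permutation test (two-sided p = 0.143, where 4 against 4 libraries cannot go below 0.0286). DESeq2 called Tph1 lower (adjusted p = 0.00572). Without the filter on low counts edgeR did not call it (adjusted p = 0.133), nor did it in any of the 5 fits without 1 library in which Tph1 passed the filter (edgeR adjusted p = 0.0657 to 0.352). At this depth 3 counts equal 0.125 to 0.139 CPM (counts scaled to a common library size) in the TPH1 knockout libraries, which is the level that a count of 0 allows, for counting error only. Keratinocyte markers were present in every library, with a summed level of 11166 to 14693 CPM over 10 genes in TPH1 knockout and 17679 to 26181 CPM in WT. Skeletal muscle markers were also abundant, with a summed level of 66433 to 120361 CPM over 16 genes in TPH1 knockout and 16605 to 108140 CPM in WT.

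Of the 10 genes, 9 had enough counts to be tested, and 1, Gtf2h1, was called changed between genotypes. Gtf2h1 was lower in TPH1 knockout skin. By CPM, Sergef, Hps5, Saal1 and Tsg101 were also lower in all 4 TPH1 knockout libraries than in all 4 WT libraries, without passing the adjusted test. Across all 16908 genes tested with edgeR's quasi-likelihood test, 0.651% were called at a Benjamini-Hochberg adjusted p under 0.05, and 0.532% were called lower. In 5 of the 9 tested neighbours the CPM of the groups did not overlap and was lower in TPH1 knockout, beside 5.65% of all tested genes, and in 0 of 9 it was higher without overlap, beside 5.39% of all tested genes. At an unadjusted p under 0.05 edgeR gave 3 of the 9 lower, beside 9.37% of all tested genes, and 1 higher, beside 8.26%. DESeq2 called 2 of the neighbours, Gtf2h1 and Sergef, both lower, where it called 4.71% of all genes it tested and 3.18% lower. The log2 fold change was below 0 in 6 of the 9, beside 46.9% of all tested genes, with a median of -0.33 beside 0.029. In bulk tissue, fewer cells of a type and less RNA per cell cannot be told apart. The mean log2(CPM + 1) of the 10 keratinocyte markers was 9.03 to 9.22 in TPH1 knockout and 9.54 to 9.92 in WT, with the log2 fold change below 0 in all 10 and 1 called, and its part in the lower levels of these neighbours was not tested.

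**Figure D1:**
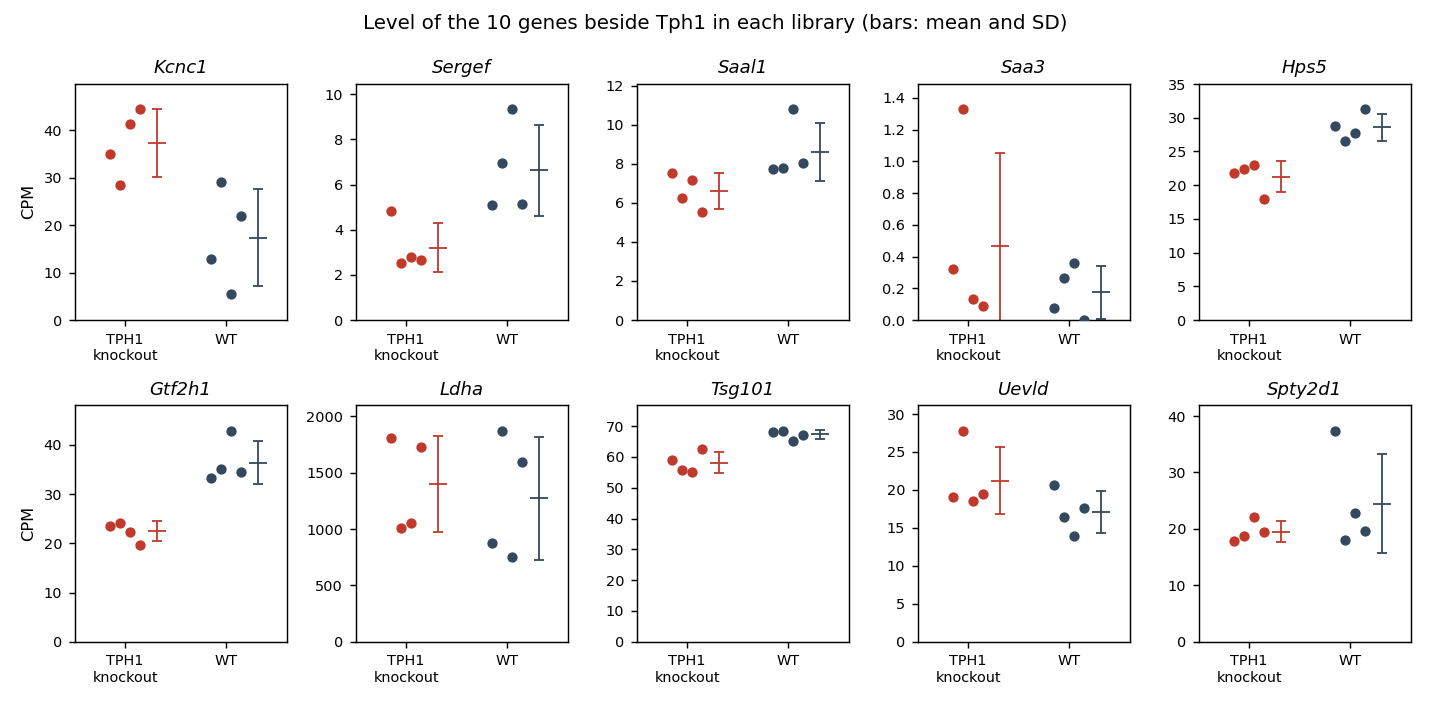
Level of each of the 10 genes in CPM on the vertical axis, with 1 point per library, the 4 TPH1 knockout libraries left and the 4 WT libraries right, and bars for the mean and SD; the panels follow the order of the genes on the chromosome. The groups are apart for Sergef, Saal1, Hps5, Gtf2h1 and Tsg101, with TPH1 knockout lower in each, and overlap for the other 5 genes.

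Hps5 and Gtf2h1 lie head to head, with 38 bases between their annotated bodies, and their promoter windows, from 250 bases before to 50 bases after the RefSeq start site, share 288 bases. RefSeq promoter sequences on GRCm38.p6 were found for 9 of the 10 genes, in 10 windows. The window of Gtf2h1, which also holds the start site of Hps5 at its base 38, is shown because both genes had lower counts in every TPH1 knockout library. The window of Sergef is shown because that gene had the largest log2 fold change among the lower ones, and the main window of Ldha because it holds the same CACGTG motif beside a gene whose groups overlapped. Capitals mark CACGTG, which reads the same on both strands, and CGGAAG or its reverse complement CTTCCG; the 2 motifs do not overlap in these windows.
Gtf2h1, plus strand, chr7:46795844-46796143: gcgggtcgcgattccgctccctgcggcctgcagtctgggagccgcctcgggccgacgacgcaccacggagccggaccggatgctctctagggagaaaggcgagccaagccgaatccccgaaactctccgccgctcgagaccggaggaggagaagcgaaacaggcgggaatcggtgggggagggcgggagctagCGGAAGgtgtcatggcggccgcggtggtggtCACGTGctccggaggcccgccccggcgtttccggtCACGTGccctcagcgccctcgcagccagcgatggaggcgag
Sergef, minus strand, chr7:46639758-46640057: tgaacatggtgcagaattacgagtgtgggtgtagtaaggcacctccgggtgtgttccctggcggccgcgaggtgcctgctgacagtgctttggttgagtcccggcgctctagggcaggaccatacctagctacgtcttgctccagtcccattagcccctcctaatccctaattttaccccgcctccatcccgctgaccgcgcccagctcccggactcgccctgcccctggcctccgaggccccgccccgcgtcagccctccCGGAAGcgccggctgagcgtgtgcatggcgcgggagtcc
Ldha, plus strand, chr7:46845554-46845853: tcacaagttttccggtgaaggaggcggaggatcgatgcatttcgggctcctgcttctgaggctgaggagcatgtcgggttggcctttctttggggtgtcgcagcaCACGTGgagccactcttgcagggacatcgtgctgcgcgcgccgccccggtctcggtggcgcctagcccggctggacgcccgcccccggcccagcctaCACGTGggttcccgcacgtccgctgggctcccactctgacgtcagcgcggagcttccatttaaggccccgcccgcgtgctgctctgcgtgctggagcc

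The Gtf2h1 window holds CACGTG at bases 225 and 260, on either side of the Gtf2h1 start site at base 251. CACGTG, the E-box that several basic helix-loop-helix factors bind, was in 7.15% of all 32851 RefSeq windows of this length, and in 3 of the 10 windows of the neighbours, of which Hps5 and Gtf2h1 share the same copies. CGGAAG, a core letter string of ETS family sites, was in 6 of the 10 windows and in 16.9% of all windows, searched on both strands. GGGCGG was in 8 of the 10 windows and in 35.7% of all windows. Hps5 and Gtf2h1 share the same copies of CGGAAG and GGGCGG too, so that these counts also hold shared sites. CCAAT was in 1 of 10 and in 37.4% of all windows, and TATAAA in 0 of 10 and in 13.6% of all windows. The neighbours' windows were 46.0% to 74.7% G and C, with the lowest in Saa3, beside a median of 52.7% over all windows. These are matches of letters and describe no binding.

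Gtf2h1 (ENSMUSG00000006599, plus strand, chr7:46796103-46823800) had 510, 582, 511 and 432 counts in TPH1 knockout replicates 1 to 4, and 877, 791, 954 and 767 counts in WT replicates 1 to 4. Scaled to library size it averaged 22.4 ± 2.03 CPM in TPH1 knockout and 36.4 ± 4.38 CPM in WT (SD, n = 4 each). No library of one group reached the other, with 24.2 CPM as the highest in TPH1 knockout and 33.2 CPM as the lowest in WT. Gtf2h1 fell by 0.70 ± 0.13 on the log2 scale (SE; 95% interval -0.98 to -0.42; edgeR adjusted p = 0.0481), so that TPH1 knockout had 61.6% of the WT level. The direction held in each of 20 alternatives, but the call was narrow. Without any 1 of the 8 libraries in turn, the log2 fold change was -0.74 to -0.61 and the edgeR adjusted p 0.0665 to 0.212, so that the call was lost each time. Those fits called 0.046% to 0.991% of all tested genes, beside 0.651% in the main fit. With a covariate for the immediate early and heat shock level the log2 fold change was -0.52 (edgeR adjusted p = 0.607), and with the level of skeletal muscle genes it was -0.60 (edgeR adjusted p = 0.141). These fits called 0.03% and 0.16% of all tested genes, in that order. The mean log2(CPM + 1) of 24 immediate early and heat shock genes was 6.65 to 7.40 in TPH1 knockout and 7.24 to 8.74 in WT. The groups overlapped little in that level, so that the fit with it can hardly tell it apart from genotype.

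None of the other TFIIH subunits was called. Of 9 listed, 9 were tested and edgeR called 0, with 5 below 0 and a median log2 fold change that rounds to 0 beside 0.029 over all tested genes. DESeq2 also called 0 of them. The smallest p-values belonged to Ercc3, a helicase of the complex, at 24.7 ± 2.43 CPM in TPH1 knockout and 28.8 ± 1.39 CPM in WT (SD, n = 4 each; log2 fold change -0.22 ± 0.11 SE; edgeR adjusted p = 0.341), and to Gtf2h2, another core subunit, at 11.1 ± 0.687 CPM in TPH1 knockout and 9.21 ± 1.19 CPM in WT (SD, n = 4 each; log2 fold change 0.27 ± 0.16 SE; edgeR adjusted p = 0.388). Cdk7, the kinase of the complex, followed with -0.18 ± 0.14 (log2 fold change, SE; edgeR adjusted p = 0.512). Among 16 nucleotide excision repair genes outside TFIIH, edgeR called 0 of 16 tested and DESeq2 called 1 higher. Uvssa, which acts in transcription-coupled repair, averaged 25.4 ± 3.07 CPM in TPH1 knockout and 15.5 ± 2.98 CPM in WT (SD, n = 4 each), a log2 fold change of 0.71 ± 0.17 (SE; by edgeR, adjusted p = 0.0938). Ddb2, which recognises damage, had a log2 fold change of 0.49 ± 0.16 (SE; by edgeR, adjusted p = 0.177).

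Hps5 (ENSMUSG00000014418, minus strand, chr7:46760466-46796064) had 471, 539, 529 and 393 counts in TPH1 knockout replicates 1 to 4, and 763, 599, 617 and 696 counts in WT replicates 1 to 4. It averaged 21.3 ± 2.33 CPM in TPH1 knockout and 28.6 ± 2.02 CPM in WT (SD, n = 4 each), and the groups were apart, with 23.0 CPM as the highest in TPH1 knockout and 26.6 CPM as the lowest in WT. Its log2 fold change was -0.43 ± 0.12 (SE; 95% interval -0.70 to -0.15; edgeR adjusted p = 0.139). Hps5 thus had the direction of its head-to-head partner with a smaller size. Of the counts of the pair, Hps5 took 48.0%, 48.1%, 50.9% and 47.6% in TPH1 knockout replicates 1 to 4, and 46.5%, 43.1%, 39.3% and 47.6% in WT replicates 1 to 4. The groups were barely apart, with 0.910 Hps5 counts per Gtf2h1 count in TPH1 knockout replicate 4 and 0.907 in WT replicate 4. The means of 48.6 ± 1.49% in TPH1 knockout and 44.1 ± 3.75% in WT differed with an exact permutation p of 0.0286 (two-sided, n = 4 each), the smallest this design can give, or 0.0731 after Benjamini-Hochberg adjustment over the 23 shares tested. The 23 hold some shares more than once, with those of copies of Spty2d1, Tsg101 and Uevld entered at both 85% and 95% identity. The share of Hps5 in this pair was not among the planned tests. The other subunits of BLOC-2 had log2 fold changes above 0. Hps6 was at 8.27 ± 0.829 CPM in TPH1 knockout and 5.81 ± 1.26 CPM in WT (SD, n = 4 each; log2 fold change 0.51 ± 0.21 SE; edgeR adjusted p = 0.246), and Hps3 had a log2 fold change of 0.12 ± 0.18 (SE; by edgeR, adjusted p = 0.753). Of 18 further genes that build lysosome-related organelles, edgeR and DESeq2 each called 0, with 11 below 0 and a median log2 fold change of -0.10. Vps33a had the smallest p-value among them, with a log2 fold change of 0.39 ± 0.19 (SE; by edgeR, adjusted p = 0.322), followed by Ap3s2 of the AP-3 coat at 0.21 ± 0.11 and Rab38, a small GTPase of melanosome transport, at -0.37 ± 0.21 (log2 fold changes, SE; edgeR adjusted p = 0.351 and 0.363). Melanocyte markers, the genes of cells in which BLOC-2 has a known part, summed to 41.2 to 123 CPM over 7 genes in TPH1 knockout and 44.1 to 61.4 CPM in WT, with 0 of 6 tested called.

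Tsg101 (ENSMUSG00000014402, minus strand, chr7:46888949-46919969) showed the smallest log2 fold change in size among the 5 genes whose groups were apart in CPM. It had 59.1, 55.7, 55.1 and 62.7 CPM in TPH1 knockout replicates 1 to 4, and 68.2, 68.5, 65.2 and 67.2 CPM in WT replicates 1 to 4. The means were 58.1 ± 3.52 CPM in TPH1 knockout and 67.3 ± 1.47 CPM in WT (SD, n = 4 each), and the log2 fold change was -0.21 ± 0.09 (SE; 95% interval -0.42 to 0.00; edgeR adjusted p = 0.287). Of its ESCRT-I partners, 8 of 9 were tested, with 6 below 0 and 0 called by edgeR or DESeq2. Vps37b, an ESCRT-I subunit, averaged 17.5 ± 3.81 CPM in TPH1 knockout and 27.1 ± 11.7 CPM in WT (SD, n = 4 each; log2 fold change -0.63 ± 0.29 SE; edgeR adjusted p = 0.292). Mvb12a and Vps37a, 2 further subunits, had log2 fold changes of -0.26 ± 0.12 and 0.18 ± 0.12 (SE; by edgeR, adjusted p = 0.308 and 0.467). Among 21 genes of the other ESCRT complexes, 17 were below 0, the median log2 fold change was -0.22 beside 0.029 over all tested genes, edgeR called 0 and DESeq2 called 1 lower. In 4 of the 21 the groups were apart and lower in TPH1 knockout, beside 5.65% of all tested genes. Chmp4b, a main filament subunit of ESCRT-III, averaged 115 ± 11 CPM in TPH1 knockout and 155 ± 7.81 CPM in WT (SD, n = 4 each; log2 fold change -0.44 ± 0.12 SE; edgeR adjusted p = 0.122). Chmp5 and Chmp2a, also of ESCRT-III, had log2 fold changes of -0.35 ± 0.10 and -0.46 ± 0.15 (SE; by edgeR, adjusted p = 0.136 and 0.185).

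Uevld (ENSMUSG00000043262, minus strand, chr7:46923216-46958527), which lies 3246 bases from Tsg101, did not share its direction. It had 19.1, 27.8, 18.6 and 19.4 CPM in TPH1 knockout replicates 1 to 4, and 20.6, 16.5, 13.9 and 17.6 CPM in WT replicates 1 to 4. TPH1 knockout replicate 2 was high and the groups overlapped, with means of 21.2 ± 4.4 CPM in TPH1 knockout and 17.2 ± 2.75 CPM in WT (SD, n = 4 each). The log2 fold change was 0.31 ± 0.18 (SE; 95% interval -0.09 to 0.70; edgeR adjusted p = 0.383), and 0.15 without that library.

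Sergef (ENSMUSG00000030839, minus strand, chr7:46443154-46639807) is the nearest neighbour of Tph1, with 4833 bases between the annotated bodies. It had 104, 61, 64 and 58 counts in TPH1 knockout replicates 1 to 4, and 135.46, 157, 208 and 113.64 expected counts in WT replicates 1 to 4. The means were 3.19 ± 1.08 CPM in TPH1 knockout and 6.64 ± 2.01 CPM in WT (SD, n = 4 each), and TPH1 knockout replicate 1, at 4.81 CPM, came close to the lowest WT library, at 5.10 CPM, without reaching it. Its log2 fold change was -1.05 ± 0.30 (SE; 95% interval -1.72 to -0.38), which edgeR did not call (adjusted p = 0.137) and DESeq2 did (log2 fold change -1.07; adjusted p = 0.0261). Among the 9 tested neighbours it was the largest decrease in size.

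Reads of Sergef can also be assigned to Gm45311, an annotated sense-intronic transcript on its strand at chr7:46511451-46512780, which is 99.88% identical to the longest Sergef transcript over 830 bases. Gm45311 had 0 counts in each TPH1 knockout library, and 10.54, 0, 27 and 16.36 expected counts in WT replicates 1 to 4. In WT replicates 1 and 4 neither gene's count was whole while their sums, 146 and 130, were, so that RSEM divided reads between the pair there. In the other 6 libraries both counts were whole, and the sums do not show whether reads were divided. Gm45311 took 7.22%, 0%, 11.5% and 12.6% of the summed counts in WT replicates 1 to 4, and was listed at 0 in WT replicate 2, as Tph1 was. DESeq2 called it lower (adjusted p = 0.00655), while edgeR without the filter on low counts did not (adjusted p = 0.139). It was called in 0 of the 5 fits without 1 library in which it passed the filter (edgeR adjusted p = 0.0731 to 0.353), and the exact permutation test gave a two-sided p of 0.143. With both summed, the log2 fold change of Sergef was -1.18 (edgeR adjusted p = 0.113), an alternative chosen after the data were seen. In the exocyst, which Sergef binds, edgeR and DESeq2 called 0 of 9 tested genes, with a median log2 fold change of 0.02; Exoc6b, Exoc6 and Exoc1, all subunits, had -0.28 ± 0.13, 0.31 ± 0.28 and -0.08 ± 0.10 (log2 fold changes, SE; edgeR adjusted p = 0.292, 0.576 and 0.687). Of 9 other genes with RCC1-like repeats, edgeR called 0 and DESeq2 called 1 higher. Herc2, a ubiquitin ligase among them, averaged 102 ± 18.9 CPM in TPH1 knockout and 61.9 ± 13 CPM in WT (SD, n = 4 each; log2 fold change 0.72 ± 0.19 SE; edgeR adjusted p = 0.119), and Rcbtb1 and Rcc1 had log2 fold changes of 0.42 ± 0.14 and -0.42 ± 0.16 (SE; by edgeR, adjusted p = 0.181 and 0.219).

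**Figure D2:**
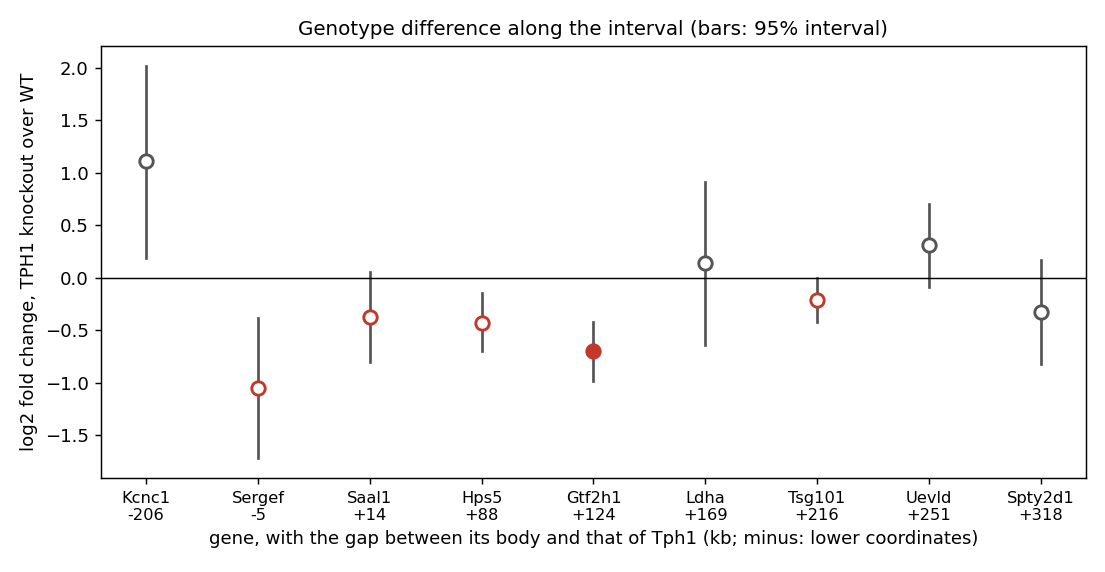
Log2 fold change of TPH1 knockout over WT for the 9 tested neighbours in chromosome order on the horizontal axis, with the gap to the body of Tph1 in kb under each name and bars for the 95% interval. The filled point is the gene called by edgeR, Gtf2h1, and red outlines mark the 5 genes whose groups do not overlap in CPM. Values run from -1.05 for Sergef to 1.11 for Kcnc1, both on the side of lower coordinates.

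Saal1 (ENSMUSG00000006763, minus strand, chr7:46686108-46710680) had 7.54, 6.25, 7.19 and 5.51 CPM in TPH1 knockout replicates 1 to 4, and 7.75, 7.77, 10.8 and 8.01 CPM in WT replicates 1 to 4. The groups did not overlap, but the gap between 7.54 CPM in TPH1 knockout and 7.75 CPM in WT was small. The means were 6.62 ± 0.923 CPM in TPH1 knockout and 8.58 ± 1.47 CPM in WT (SD, n = 4 each), a log2 fold change of -0.37 ± 0.19 (SE; 95% interval -0.80 to 0.05; edgeR adjusted p = 0.338). Saa3 (ENSMUSG00000040026, minus strand, chr7:46711998-46715700), 1317 bases away, was too low to be tested. It had 7, 32, 3 and 2 counts in TPH1 knockout replicates 1 to 4, and 2, 6, 8 and 0 counts in WT replicates 1 to 4. TPH1 knockout replicate 2 held most of its counts, and the means of 0.47 ± 0.584 CPM in TPH1 knockout and 0.175 ± 0.166 CPM in WT were not apart (SD, n = 4 each; exact permutation test, two-sided p = 0.457). Without that library the difference in means was 0.00646 CPM.

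The remaining serum amyloid A genes of the interval were near the floor. Saa1 had no counts in the TPH1 knockout libraries, and 2, 0, 4 and 1 counts in WT replicates 1 to 4. Saa2 had none in TPH1 knockout, and 2, 1, 0 and 0 counts in WT replicates 1 to 4, and Saa4 had none in any library. The list of acute phase genes and amyloid A receptors held 14 genes, of which 12 were tested and 10 had a log2 fold change below 0, with a median of -0.67. Both calls among all 144 tested genes of the 14 partner lists, which make 1.39% beside 0.651% of all tested genes, fell in it, and both were lower in TPH1 knockout. Cebpb, a transcription factor of the acute phase response, fell by 0.81 ± 0.13 on the log2 scale (SE; by edgeR, adjusted p = 0.0324), with 75.7 ± 9.39 CPM in TPH1 knockout and 132 ± 11 CPM in WT (SD, n = 4 each). Orm1, the acute-phase protein orosomucoid, fell by 1.22 ± 0.20 on the log2 scale (SE; by edgeR, adjusted p = 0.0361), with 31.0 ± 8.7 CPM in TPH1 knockout and 72.2 ± 8.7 CPM in WT (SD, n = 4 each). Rela, a subunit of NF-kappaB, had a log2 fold change of -0.52 ± 0.13 (SE; by edgeR, adjusted p = 0.114). DESeq2 called 5 of these genes lower, beside 3.18% of all genes it tested. The immediate early and heat shock level overlapped between groups only at 7.24 to 7.40, with TPH1 knockout on the lower side. Its part in the lower levels of this list was not tested. With that level as a covariate the log2 fold change was -0.73 ± 0.20 for Cebpb and -1.45 ± 0.33 for Orm1 (SE; by edgeR, adjusted p = 0.551 and 0.485), and neither was called. The fit with that covariate called 0.03% of all tested genes. Cebpb and Orm1 each kept the call in 1 of the 8 fits that left out 1 library, with an edgeR adjusted p of 0.0436 to 0.143 for Cebpb and 0.0179 to 0.138 for Orm1.

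Ldha (ENSMUSG00000063229, plus strand, chr7:46841475-46855627) was the most abundant of the 10 genes. It had 1808, 1006, 1057 and 1729 CPM in TPH1 knockout replicates 1 to 4, and 877, 1873, 751 and 1595 CPM in WT replicates 1 to 4. Both groups split into high and low libraries and overlapped over most of their range, with means of 1400 ± 427 CPM in TPH1 knockout and 1274 ± 545 CPM in WT (SD, n = 4 each). The log2 fold change was 0.14 ± 0.35 (SE; 95% interval -0.64 to 0.91; edgeR adjusted p = 0.865), so that a difference of either sign within that interval was not excluded. The mean log2(CPM + 1) of 16 skeletal muscle genes was 12.15, 11.38, 11.34 and 12.15 in TPH1 knockout replicates 1 to 4, and 10.70, 11.87, 9.29 and 11.71 in WT replicates 1 to 4. The libraries with the most Ldha were those with the most muscle RNA in either group. With the muscle level as a covariate the log2 fold change was -0.30 ± 0.20 (SE; by edgeR, adjusted p = 0.595).

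Within the lactate dehydrogenase family, Ldha took 84.3% to 89.3% of the counts in TPH1 knockout and 88.6% to 92.7% in WT (exact permutation test, two-sided p = 0.0571, n = 4 each). Ldhb, the subunit of oxidative tissue, averaged 165 ± 31.4 CPM in TPH1 knockout and 98.5 ± 26.7 CPM in WT (SD, n = 4 each; log2 fold change 0.75 ± 0.22 SE; edgeR adjusted p = 0.154). DESeq2 called Ldhb higher (adjusted p = 0.0475), and with the muscle level as a covariate its log2 fold change was 0.47 ± 0.15 (SE; by edgeR, adjusted p = 0.308). Ldhd, which acts on D-lactate, had a log2 fold change of 0.67 ± 0.26 (SE; by edgeR, adjusted p = 0.230), which DESeq2 did not call either (adjusted p = 0.158), and its share of the family was 1.92 ± 0.242% in TPH1 knockout and 1.43 ± 0.204% in WT, higher in all 4 TPH1 knockout libraries (SD, n = 4 each; exact permutation test, two-sided p = 0.0286, adjusted 0.0731). Ldhc, the testis form, which also lies in the interval, had 1 count in TPH1 knockout replicate 1 and none in the other 7 libraries. Of 21 glycolysis genes, edgeR and DESeq2 each called 0, with 13 above 0 and a median log2 fold change of 0.26. Aldoc, Eno1 and Pgam1, enzymes of the pathway, had the smallest p-values, with log2 fold changes of -0.55 ± 0.16, -0.45 ± 0.15 and -0.40 ± 0.16 (SE; by edgeR, adjusted p = 0.154, 0.195 and 0.233), opposite in sign to the list's median.

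Kcnc1 (ENSMUSG00000058975, plus strand, chr7:46396497-46438704) had the largest positive difference. It had 34.9, 28.5, 41.4 and 44.5 CPM in TPH1 knockout replicates 1 to 4, and 12.9, 29.0, 5.57 and 22 CPM in WT replicates 1 to 4. Only WT replicate 2 reached the TPH1 knockout range, and the means were 37.3 ± 7.1 CPM in TPH1 knockout and 17.4 ± 10.3 CPM in WT (SD, n = 4 each). Its log2 fold change was 1.11 ± 0.41 (SE; 95% interval 0.19 to 2.02; edgeR adjusted p = 0.216). In WT the order of the libraries by Kcnc1 was that of the muscle level, from replicate 3 to replicates 1, 4 and 2. In TPH1 knockout it was not, since replicate 3, with the lowest muscle level, had the second highest Kcnc1. With the muscle level as a covariate the log2 fold change was 0.68 ± 0.21 (SE; by edgeR, adjusted p = 0.291), and with the immediate early and heat shock level it was -0.16 ± 0.39 (SE; by edgeR, adjusted p = 0.921). The immediate early and heat shock level overlapped little between groups, so that the fit with it can hardly tell it apart from genotype. The neuron and Schwann cell markers, whose cells are another known source of Kv3 channels, summed to 119 to 172 CPM over 7 genes in TPH1 knockout and 109 to 189 CPM in WT. Kcnc4, another Kv3 channel gene, averaged 21.8 ± 4.8 CPM in TPH1 knockout and 8.95 ± 3.42 CPM in WT, with groups apart (SD, n = 4 each; log2 fold change 1.28 ± 0.28 SE; edgeR adjusted p = 0.0762), and DESeq2 called it. Kcnc2 had a log2 fold change of 0.35 ± 0.41 (SE; by edgeR, adjusted p = 0.672).

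Kcnc1 also differed in the gene length that RSEM gives per library, which is the mean length of its transcripts weighted by their estimated share. This length was 6080, 6165, 6460 and 6332 bases in TPH1 knockout replicates 1 to 4, and 5955, 5982, 5573 and 5713 bases in WT replicates 1 to 4, so that the groups were apart. It was the only one of the 9 tested neighbours whose lengths did not overlap, which is beside 4.02% of 13416 genes whose length varied. This measure was added after the data were seen, and no transcript was tested.

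**Figure D3:**
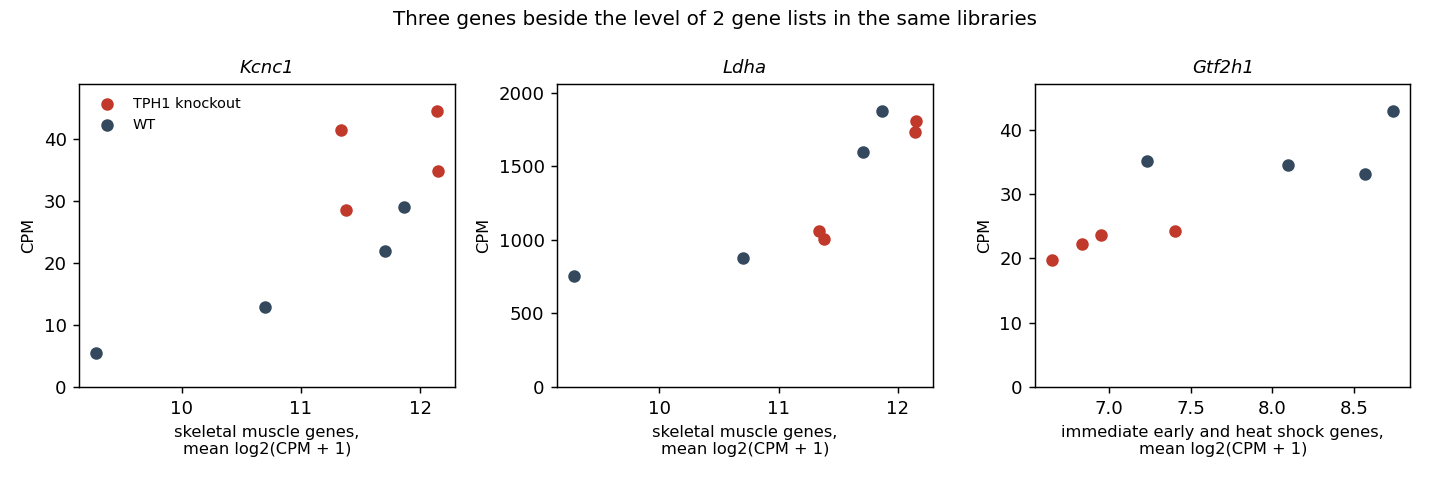
CPM of Kcnc1, Ldha and Gtf2h1 on the vertical axes beside the mean log2(CPM + 1) of 16 skeletal muscle genes or of 24 immediate early and heat shock genes in the same library on the horizontal axes, with 1 point per library and 4 libraries per genotype. Ldha is highest where the muscle level is highest in both genotypes, while the 4 TPH1 knockout libraries lie below the 4 WT libraries for Gtf2h1, at 19.7 to 24.2 CPM in TPH1 knockout and 33.2 to 42.9 CPM in WT.

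Spty2d1 (ENSMUSG00000049516, minus strand, chr7:46990396-47008411) had 17.8, 18.7, 22.1 and 19.5 CPM in TPH1 knockout replicates 1 to 4, and 37.4, 18.1, 22.9 and 19.6 CPM in WT replicates 1 to 4. A single WT library was high and the other 7 libraries were alike, with means of 19.5 ± 1.84 CPM in TPH1 knockout and 24.5 ± 8.85 CPM in WT (SD, n = 4 each). The log2 fold change was -0.33 ± 0.22 (SE; 95% interval -0.82 to 0.17; edgeR adjusted p = 0.462), and -0.05 without WT replicate 1. Among 14 other histone chaperone genes edgeR and DESeq2 called 0, with a median log2 fold change of -0.06. Nasp, a histone H1 and H3 binding protein, had -0.49 ± 0.13, Ssrp1 of the FACT complex -0.27 ± 0.13 and Nap1l1 -0.22 ± 0.12 (log2 fold changes, SE; edgeR adjusted p = 0.124, 0.322 and 0.385).

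By length-scaled level, the 4 highest genes and the lowest were the same in both genotypes, while the 5 between them stood in another order. In TPM, the length-scaled unit of RSEM, Ldha averaged 1207 ± 248 in TPH1 knockout and 1136 ± 447 in WT, and Tsg101 65.1 ± 8.77 in TPH1 knockout and 76.4 ± 11.7 in WT (SD, n = 4 each). Both stood apart from the rest in every library, since no other neighbour passed 22.6 TPM. Gtf2h1 at 11.9 ± 2.06 TPM and Hps5 at 11.1 ± 2.64 TPM followed in TPH1 knockout, against 19.8 ± 2.92 TPM and 16 ± 1.45 TPM in WT, and did not differ from each other beyond their spread in TPH1 knockout (SD, n = 4 each). In TPH1 knockout, Kcnc1, Uevld and Spty2d1 came next at 7.7 ± 1.94, 6.13 ± 1.48 and 4.97 ± 1.3 TPM, and Sergef and Saal1 last among the tested at 3.1 ± 0.6 and 2.99 ± 0.418 TPM (SD, n = 4 each). In WT the order was Sergef at 7.03 ± 2.22 TPM, Spty2d1 at 6.4 ± 2.95 TPM, Uevld at 5.03 ± 1.19 TPM, Saal1 at 4.0 ± 0.919 TPM and Kcnc1 at 3.87 ± 2.14 TPM, and the spreads of each of these neighbours in the order overlapped (SD, n = 4 each). Saa3 was lowest, at 1.45 ± 1.78 TPM in TPH1 knockout and 0.65 ± 0.623 TPM in WT (SD, n = 4 each).

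Annotated copies elsewhere in the genome took a small part of the counts of Ldha, Tsg101, Uevld and Spty2d1, and for some copies that part did not overlap between genotypes. A copy was an annotated gene with a transcript at least 85% identical over at least 400 bases to the longest transcript of the neighbour, and a close copy one at least 95% identical. Under the 85% rule, 5 of the 10 genes had copies, while Kcnc1, Saal1, Saa3, Hps5 and Gtf2h1 had none. Ldha had 23 copies, of which 2 were close, the processed pseudogenes Gm5452 on chromosome 13 (chr13:83832340-83833336, 95.9% identical) and Gm9247 on chromosome 14 (chr14:93194698-93195696, 95.6% identical). The 118 bases of the second coding exon of Ldha and the same stretch of both copies, on GRCm38 in the sense of Ldha, are shown because they carry the letters by which a read can be assigned. Capitals in the first 2 lines mark the 5 bases at which Gm5452 and Ldha differ, and in the last line the 1 base at which Gm9247 differs from Ldha.
Ldha, plus strand, chr7:46848973-46849090: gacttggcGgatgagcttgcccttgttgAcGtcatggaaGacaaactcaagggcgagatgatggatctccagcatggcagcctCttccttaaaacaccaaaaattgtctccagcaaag
Gm5452, plus strand, chr13:83832467-83832584: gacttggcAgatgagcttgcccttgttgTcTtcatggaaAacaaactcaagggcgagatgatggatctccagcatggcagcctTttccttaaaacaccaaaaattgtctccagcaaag
Gm9247, minus strand, chr14:93195452-93195569: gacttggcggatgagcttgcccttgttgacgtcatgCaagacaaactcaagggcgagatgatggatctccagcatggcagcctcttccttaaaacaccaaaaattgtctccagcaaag

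Gm5452 had 278.91, 135.70, 171.41 and 294.31 expected counts in TPH1 knockout replicates 1 to 4, and 24.30, 107.23, 20.18 and 76.02 in WT replicates 1 to 4. Each TPH1 knockout library was above each WT library. Of the counts of Ldha and its 23 copies, Gm5452 took 0.704%, 0.556%, 0.697% and 0.764% in TPH1 knockout replicates 1 to 4, and 0.104%, 0.252%, 0.120% and 0.213% in WT replicates 1 to 4. Their means of 0.680 ± 0.088% in TPH1 knockout and 0.172 ± 0.0716% in WT were apart (SD, n = 4 each; exact permutation test, two-sided p = 0.0286, adjusted 0.0731). As a gene of its own, Gm5452 had a log2 fold change of 1.98 ± 0.56 (SE), which edgeR did not call (adjusted p = 0.136) and DESeq2 did (log2 fold change 1.99; adjusted p = 0.00601). With the muscle level as a covariate it was 1.37 ± 0.34, and with the immediate early and heat shock level 0.27 ± 0.54 (log2 fold changes, SE; by edgeR, adjusted p = 0.203 and 0.901). The latter level overlapped little between groups, so that the fit with it can hardly tell it apart from genotype. The share of Gm9247 was 0.460 ± 0.0693% in TPH1 knockout and 0.502 ± 0.0479% in WT, with groups that overlapped (SD, n = 4 each; exact permutation test, two-sided p = 0.429). Over all 23 copies the share was 1.01% to 1.44% in TPH1 knockout and 0.755% to 1.05% in WT (exact permutation test, two-sided p = 0.0571, n = 4 each), and over the 2 close copies it was 0.915% to 1.26% in TPH1 knockout and 0.607% to 0.819% in WT (p = 0.0286 by the same exact test). With the close copies added, the log2 fold change of Ldha was 0.14.

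Copies of Uevld and Spty2d1 had the same direction at much lower counts. Gm9256 on chromosome 12 (chr12:115892884-115894303), a processed pseudogene 99.2% identical to Uevld, had 8.64, 12.18, 8.35 and 10.81 expected counts in TPH1 knockout replicates 1 to 4, and 4.58, 1.19, 3.99 and 1.05 in WT replicates 1 to 4. Its share of the counts of Uevld and copy was 2.06 ± 0.293% in TPH1 knockout and 0.673 ± 0.474% in WT, and the groups were apart (SD, n = 4 each; exact permutation test, two-sided p = 0.0286, adjusted 0.0731). Gm49504 on chromosome 16 (chr16:3346350-3348370), annotated as a long intergenic RNA and 95.1% identical to Spty2d1, had 5, 4.16, 5 and 4 expected counts in TPH1 knockout replicates 1 to 4, and 0 in each WT library, where a count of 0 allows up to 3. Its share was 1.02 ± 0.174% in TPH1 knockout and 0% in WT (SD, n = 4 each; exact permutation test, two-sided p = 0.0286, adjusted 0.0731). Tsg101-ps on chromosome 15 (chr15:62980648-62981817), 97.9% identical to Tsg101, took 6.16% to 6.99% in TPH1 knockout and 4.59% to 6.38% in WT, and the groups overlapped (exact permutation test, two-sided p = 0.0571, n = 4 each). RSEM assigns such reads by probability, and whether they came from the copy or from a variant form of the parent was not tested.

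**Figure D4:**
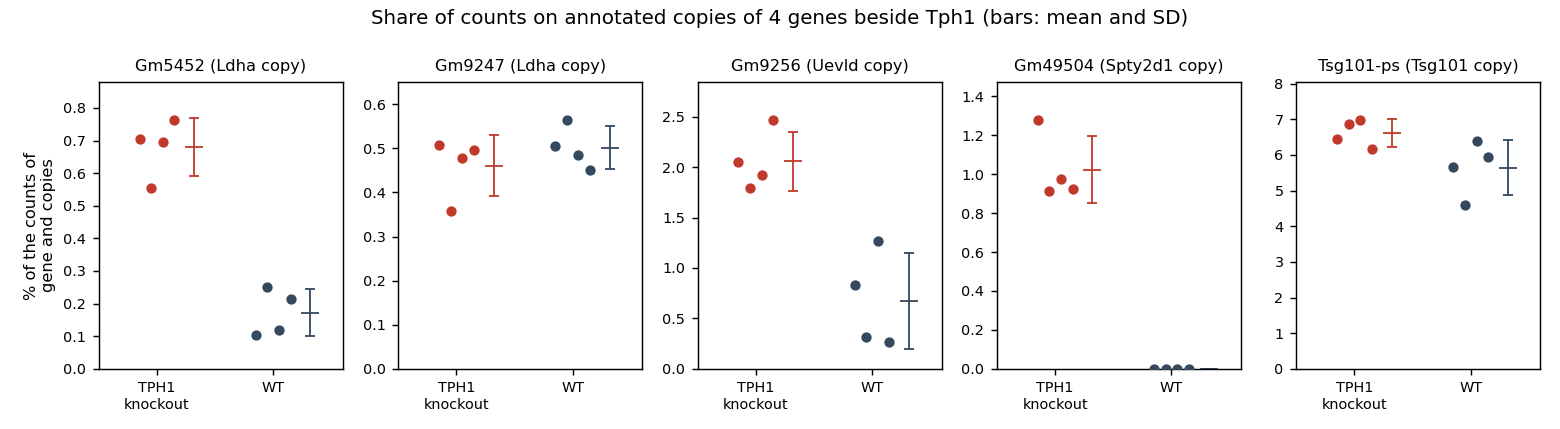
Percent of the expected counts of a gene and its copies that fell on 1 copy, with 1 point per library, the 4 TPH1 knockout libraries left and the 4 WT libraries right, and bars for the mean and SD. The shares of Gm5452, Gm9256 and Gm49504 are apart, with TPH1 knockout higher, while those of Gm9247 and Tsg101-ps overlap.

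Of the other 26 genes of the interval, edgeR called 0 of the 5 it tested, with 1 at an unadjusted p under 0.05, and DESeq2 called 1 of 7, Gm45311. Besides the 10 neighbours and Tph1 it holds 8 protein-coding genes, of which Myod1 and Tmem86a were tested. Myod1, the myogenic transcription factor, had 9.12, 7.79, 7.15 and 13.2 CPM in TPH1 knockout replicates 1 to 4, and 5.6, 12, 1.57 and 5.49 CPM in WT replicates 1 to 4. The groups overlapped, and in WT its lowest and highest libraries were those of the muscle level (log2 fold change 0.59 ± 0.49 SE; edgeR adjusted p = 0.542). Tmem86a, a membrane protein with lysoplasmalogenase activity, had 8.33, 8.08, 20.6 and 7.42 CPM in TPH1 knockout replicates 1 to 4, and 10.1, 10.4, 9.89 and 8.46 CPM in WT replicates 1 to 4. Over all 8 libraries the groups overlapped, with a log2 fold change of 0.19 ± 0.32 (SE, by edgeR, adjusted p = 0.783). TPH1 knockout replicate 3 held the excess and was singled out after its value was seen. The remaining TPH1 knockout libraries were below those of WT by a small gap, with 8.33 CPM beside 8.46 CPM. Otog, a protein of the inner ear, had at most 8 counts in a library, and Gm9999 had none in any. Gm32031, a noncoding RNA that starts beside Spty2d1 and shares reads with it, had 16.35, 13, 12.76 and 6 expected counts in TPH1 knockout replicates 1 to 4, and 27.08, 21.08, 29 and 25 in WT replicates 1 to 4, with groups apart (log2 fold change -1.04 ± 0.38 SE; edgeR adjusted p = 0.215); it was singled out after its values were seen.

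For each tested neighbour, the gene with the nearest profile was sought among 16638 tested genes with counts in every library, by the root mean square difference of log2 CPM over the 8 libraries after each profile was centred on its own mean. Each of these nearest genes lay on another chromosome, as do most of the genes searched, so that this does not show whether neighbours vary together. The closest were Lactb for Tsg101, with a difference of 0.042, Sgms1 for Spty2d1, with 0.048, and H2-D1, a major histocompatibility class I gene, for Gtf2h1, with 0.067. Ldha was nearest to Pkm, the pyruvate kinase that precedes it in glycolysis, at 0.085, and Kcnc1 to Fhl1, a gene abundant in muscle, at 0.120. Fhl1 averaged 1429 ± 213 CPM in TPH1 knockout and 701 ± 378 CPM in WT (SD, n = 4 each; log2 fold change 1.03 ± 0.40 SE; edgeR adjusted p = 0.233). Saal1 was nearest to Snrnp40 and Hps5 to Sema4a, both at 0.091, Uevld to Zfp276 at 0.1 and Sergef to Eif6 at 0.225. These are likenesses in 8 libraries and describe no shared function.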

How the data were processed

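Per the labels' protocols, total RNA came from dorsal skin by a Qiagen column kit and libraries were made with NEBNext Ultra RNA reagents, which keep no strand, so reads of overlapping antisense genes cannot be told apart. Per the submitters' processing notes, STAR 2.7.6a, RSEM 1.31, DESeq2 and DESeq were used with GRCm38. The deposited tables give expected counts, which the authors did not normalize and which RSEM divides among near-identical genes. Deposited TPM values are scaled to length and depth per the file headers and served for levels and as an alternative; deposited FPKM values were not used. The authors also deposited a matrix of normalized signal for 17382 genes, used in 1 alternative.

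Expected counts were rounded and fitted in edgeR 4.0.16 (R 4.3.3; filterByExpr with minimum count 10 and minimum total 15, TMM, robust quasi-likelihood F test, genotype only, Benjamini-Hochberg adjustment over 16908 genes, SE as the fold change over the square root of F). CPM uses TMM-scaled library sizes. The script was tested on simulated data. Alternatives used DESeq2 1.42.0 and limma 3.58.1, with pseudocounts of 1 for the authors' values and 0.1 for TPM. Exact permutation tests used all 70 assignments. Copies came from BLAST 2.17.0 against GENCODE M21. Nothing says the 4 libraries per genotype came from separate mice, so p-values measure the spread between libraries, which may be technical in part.

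The 10 genes, the partner lists and the marker lists were chosen with earlier results of these data known. The genes named are the 10, Tph1, the other protein-coding genes within 400 kb of Tph1, up to 3 genes per partner list with the smallest p and any called, and 1 nearest profile per tested neighbour. Annotated copies and noncoding genes that share reads with the 10 (Gm45311, Gm32031, Gm5452, Gm9247, Gm9256, Gm49504 and Tsg101-ps) are named as well, outside that rule and chosen after their values were seen. Some genes that this rule names are not reported here. A comparison of the protein sequences of Uevld, Tsg101 and the lactate dehydrogenases was planned and not analysed here.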

Additional observations from a re-analysis of the deposited data

Results flagged for a closer look

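Each group of 4 libraries was examined for a single value far from the others, for the 10 neighbours, Tph1 and the tested protein-coding genes of the interval, in 26 groups, with a Dixon ratio above 0.829 as the mark. Chance marks about 1 in 20 groups, and 4 were marked. Sergef had 4.81 CPM in TPH1 knockout replicate 1, against 2.54 to 2.79 CPM in the other TPH1 knockout libraries. Saal1 had 10.8 CPM in WT replicate 3, against 7.75 to 8.01 CPM in the other WT libraries. Uevld had 27.8 CPM in TPH1 knockout replicate 2, against 18.6 to 19.4 CPM in the other TPH1 knockout libraries. Tmem86a had 20.6 CPM in TPH1 knockout replicate 3, against 7.42 to 8.33 CPM in the other TPH1 knockout libraries.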

How the results depend on the processing

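No paired analysis was possible because the replicate numbers only follow the order of the records. Of the 10 genes, 1 was called lower. With upper quartile scaling, limma on the authors' values, limma on TPM, either covariate, or WT replicate 2 and TPH1 knockout replicate 3 both left out, 0 were called lower, and leaving out any 1 library gave 0 each time. Over all tested genes the share called was 0.651% in the main fit and 0.03% with the immediate early and heat shock covariate. It was 0.16% with the muscle covariate, 0.166% for limma on TPM and 0.449% on the authors' values. Upper quartile scaling gave 0.509%, leaving out both libraries 0.985%, and leaving out 1 library 0.046% to 0.991%. DESeq2 called 2 lower, Gtf2h1 and Sergef, beside 3.18% of all genes it tested. The remaining alternatives called 1, beside 0.461% to 0.651% of all tested genes called in either direction. None of the alternatives called a neighbour higher. The edgeR adjusted p of Gtf2h1 was 0.0373 to 0.0497 where it stayed called, and 0.0698 with upper quartile scaling; limma gave 0.0516 on the authors' values and 0.161 on TPM.

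The direction of Sergef, Saal1, Hps5, Gtf2h1, Tsg101 and Uevld held in each of 20 alternatives. The log2 fold change changed sign for Kcnc1 (-0.16) and Spty2d1 (0.15) with the immediate early and heat shock covariate, and for Ldha with that covariate (-0.85), with the muscle covariate (-0.30), and without 1 library, where it ran from -0.05 to 0.38, with -0.0031 without TPH1 knockout replicate 1 and -0.0064 without WT replicate 1. The cause was not tested. The Tph1 difference was -0.796 to -0.392 CPM without 1 library; without WT replicate 2 it was -0.796 CPM (exact permutation p = 0.0286). Of 152 listed partner genes DESeq2 called 6 lower and 4 higher, where it called 4.71% of all genes it tested and 3.18% lower. Of the 144 partner genes that edgeR tested, it called 2 lower and 0 higher, where it called 0.651% of all tested genes. The 85% rule matches Sergef to 7 other genes through 1 long transcript, over only 422 to 454 bases. Among them are expressed protein-coding genes, the highest with up to 3297.16 expected counts in a library. Their own counts enter the share under this rule, so that it does not measure Sergef reads on copies. That share was 97.7% to 98.9% in TPH1 knockout and 96.4% to 98.1% in WT. Its means differed by 1.18 percentage points, and by -7.82 under the 95% rule, which keeps Gm45311. Depth limits Saa3, Tph1 and the copies of Uevld and Spty2d1, at most 32 counts a library.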
